A study of Mus musculus with 7 samples.

Results

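Synaptotagmins are membrane proteins of vesicles and granules, and 10 of them were followed here by gene symbol: Syt1, Syt3, Syt5, Syt7 and Syt9, which are calcium sensors, and Syt4, Syt11, Syt13, Syt14 and Syt17, relatives that bind calcium weakly or not at all. All 10 were found among the 23329 symbols of the count table, and 9 passed the filter on low counts, which kept 12480 genes. Only Syt17 did not pass it. RNA came from Beta-TC6, an insulin-secreting mouse cell line grown from a beta-cell tumour of a mouse that carried a viral T antigen under the insulin promoter. The cells were wild type and received IL1B, the inflammatory cytokine interleukin-1 beta (n = 3 libraries), or vehicle (n = 4 libraries). Both groups grew in DMEM containing 15% serum, and both were exposed for 1 h to 10 micromolar forskolin, which raises cAMP, to synchronise them. How much IL1B was given, for how long, and when cells were harvested is not known from the sources used here. The study's title names NF-kB, circadian enhancers and beta-cell function, and the comparison asks what IL1B did to transcripts of these cells.

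A synaptotagmin has a membrane anchor near its amino end and a pair of C2 domains, C2A and C2B, that face the cytosol. In the calcium sensors, loops at the tip of each C2 domain carry aspartates that hold calcium, and the domain then inserts into membrane lipids and acts on the SNARE proteins that fuse granule and plasma membrane. In beta cells this step releases insulin when voltage-gated channels let calcium in. In several relatives some of these aspartates are absent from the sequence, and their roles lie more in vesicle traffic, membrane uptake and development.

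The coding sequence of the third calcium-binding loop is shown because, in C2A, it separates the sensors from both genes that passed the test here. Each line gives 27 bases, or 9 codons, from 5′ to 3′ on the coding strand, and capitals mark the aspartate codons at the 3 positions spaced as in Syt1. All lie in coding exons of GRCm38, the assembly also called mm10. The C2A stretches lie at chr10:108627346-108627372 on the minus strand in Syt1 (exon 8), at chr19:10442878-10442904 on the plus strand in Syt7 (exon 10), at chr3:88761819-88761845 on the minus strand in Syt11 (exon 2) and at chr2:92946102-92946128 on the plus strand in Syt13 (exon 4).
Syt1 C2A: GATtttGACcgcttctccaagcacGAC
Syt7 C2A: GATtatGACcgtttcagccgcaatGAC
Syt11 C2A: agctttGATcgattctctcgggatGAC
Syt13 C2A: acctgtGACcgcttctcccgccatagt
The matching C2B stretches lie at chr10:108500693-108500719 in Syt1 (exon 11), chr19:10444146-10444172 in Syt7 (exon 12), chr3:88747823-88747849 in Syt11 (exon 4) and chr2:92953524-92953550 in Syt13 (exon 6).
Syt1 C2B: GACtatGACaagattggcaagaacGAC
Syt7 C2B: GACaaaGACaagctcagccgcaacGAC
Syt11 C2B: GACttcGATcgcactactaagaatgag
Syt13 C2B: ggccagggcgaggaggggccgagctgc
The loops were compared in 9 members, and that of Syt4 was not analysed here. In C2A, all 3 positions held an aspartate codon in Syt1, Syt3, Syt5, Syt7 and Syt9, 2 did in Syt11 and Syt17, 1 in Syt13 and 0 in Syt14. In C2B the 3 codons were present in Syt1 and Syt7, 2 were present in Syt3, Syt5, Syt9 and Syt11, 1 in Syt17, and 0 in Syt13 and Syt14. Over whole proteins translated from the annotation, Syt1 and Syt5 shared 59.5% of 383 aligned residues and Syt3 and Syt9 shared 55.6% of 487. Syt14 and Syt13 were the most distant: Syt14 shared 18.8% to 25.8% of aligned residues with the other 8 aligned members, and Syt13 shared 18.8% to 27.5%. The names Syt5 and Syt9 have been exchanged between parts of the literature, and the symbols here follow the mouse annotation, in which Syt5 has 386 residues and Syt9 has 491.

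Libraries held 6007723 to 6969745 counts with IL1B and 5335607 to 7513934 with vehicle, so that 3 counts correspond to 0.399 to 0.562 per 1e+06 counts. NF-kB target genes answered the cytokine: Nfkbia averaged 479 ± 18.4 CPM (TMM-scaled counts per 1e+06 of the tested genes) with IL1B and 31.1 ± 1.49 CPM with vehicle (SD), a 15.4-fold difference, and Tnfaip3, an inhibitor of the same pathway, was 17.7-fold higher. Ins2, at 22372 and 21183 CPM, and Ins1, at 3581 and 3309 CPM with IL1B and with vehicle, fitted the beta-cell label. Of 7 tested beta-cell markers, Pdx1 (239 ± 7.96 CPM with IL1B, 354 ± 6.40 CPM with vehicle) and Mafa (152 ± 1.05 against 211 ± 8.84 CPM), transcription factors that activate the insulin genes, were lower with IL1B. Among all tested genes, 3.25% were lower by the test given below. The 8 listed markers, of which Ucn3 was below the filter, summed to 34487 to 35635 CPM with IL1B and 31029 to 36360 CPM with vehicle. Hormones of other islet cells were also present (Gcg 267 against 311 CPM, Sst 293 against 288 CPM), while Prss1 and Cpa1 of exocrine cells had 0 counts. In the second vehicle library, deviations from the group mean correlated with transcript length over genes (Spearman rho -0.54, against 0.21 to 0.30 in the other vehicle libraries and -0.02 to 0.02 with IL1B). Deviations within a group cancel out for each gene, so the positive values of the other vehicle libraries are not independent of the second. Those of the IL1B libraries were taken from the IL1B mean. The second IL1B library also stood apart, with a chi-square per degree of freedom of 4.20 against the first and 2.87 against the third, while these 2 gave 1.69 against each other. The edgeR quasi-likelihood test called 968 genes higher and 406 lower at a Benjamini-Hochberg adjusted p under 0.05. Leaving out the third IL1B library left 252 lower, and scaling by total counts gave 844 higher and 556 lower.

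Syt13 was the most abundant synaptotagmin in these cells, followed by Syt4 and Syt11. Levels of different genes are compared here only as length-scaled levels, which are counts per kb of the longest annotated transcript scaled to a sum of 1e+06 in each library. On this scale Syt13 stood at 239 ± 9.31 with IL1B and 312 ± 19.2 with vehicle (SD). Syt4 stood at 169 ± 5.88 and 188 ± 14.4, and Syt11 at 116 ± 4.55 and 91.7 ± 6.59, with IL1B and with vehicle. Below these 3 relatives came the sensors Syt5, at 56.5 ± 2.48 with IL1B and 58.2 ± 3.09 with vehicle, and Syt9, at 36.4 ± 4.19 and 35.4 ± 2.68. Syt3 (22.1 and 26.4), Syt7 (19.0 and 16.6) and Syt1 (8.97 and 11.2) followed, then Syt14 (1.55 and 1.97), and Syt17 (0.498 and 1.08), below the filter on low counts, was last. The order was the same in both groups, and each member was above the next in every library. It leans on the transcript length chosen: with the median length of each gene's transcripts, Syt5 moved to rank 2 and Syt7 to rank 5.

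**Figure D1:**
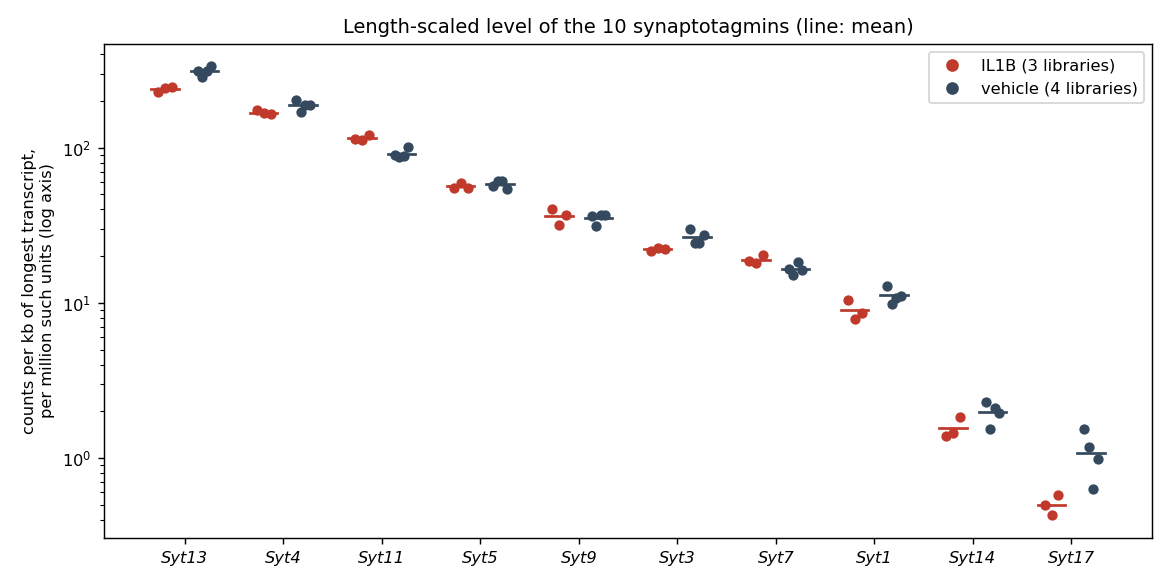
Length-scaled level of each of the 10 synaptotagmins (log axis, counts per kb of longest transcript, scaled to 1e+06 per library), with 1 point per library, IL1B left of vehicle, and a line at the group mean. Syt13 is highest in every library, at 229 to 246 with IL1B and 288 to 335 with vehicle, and Syt17 is lowest.

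Within the family, the share of Syt13 was lower and that of Syt11 higher with IL1B. Syt13 made up 34.3% to 36.7% of the 10 members' summed length-scaled level with IL1B, against 41.1% to 43.2% with vehicle. Syt11 made up 16.9% to 17.8% with IL1B, against 11.7% to 13.1% with vehicle. The share of Syt7 was 2.71% to 2.998% with IL1B, against 2.11% to 2.47% with vehicle. The shares of these 3 members did not overlap between groups, and those of the other members did, that of Syt4 at 24.3% to 26.3% with IL1B and 24.5% to 26.7% with vehicle. Shares depend on one another through the summed level, which was 664 to 676 with IL1B and 688 to 775 with vehicle. Syt7's own length-scaled levels did overlap: 17.97 in the second IL1B library lay below 18.4 in the third vehicle library. No matching count over all genes is given, so no excess is read from these 3. The members' summed CPM lay between 1025 and 1056 with IL1B and between 1072 and 1142 with vehicle.

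With IL1B, Syt11 was higher and Syt13 was lower than with vehicle, by 1.30-fold and 1.27-fold, and the other 7 tested members did not pass the test. Thus 1 of 9 tested members rose, where 7.76% of all tested genes did, and 1 of 9 fell, where 3.25% did; a single call each way in so short a list does not set the family apart from other genes. The groups did not overlap in CPM for 4 of the 9 (Syt13, Syt11, Syt7 and Syt3), against 21.0% of all tested genes. The median log2 fold change was -0.12 over the 9 members and -0.0087 over all tested genes. Of the members' estimates 3 were positive and 6 negative. An unadjusted p under 0.05 was reached by 5, but the matching share of all tested genes is not given here, so no excess is read from that count. Separate cultures are not named in the labels, so the p-values reflect how far these samples scattered, and that scatter may be technical. In bulk RNA, fewer cells expressing a gene and less RNA per cell cannot be told apart.

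**Figure D2:**
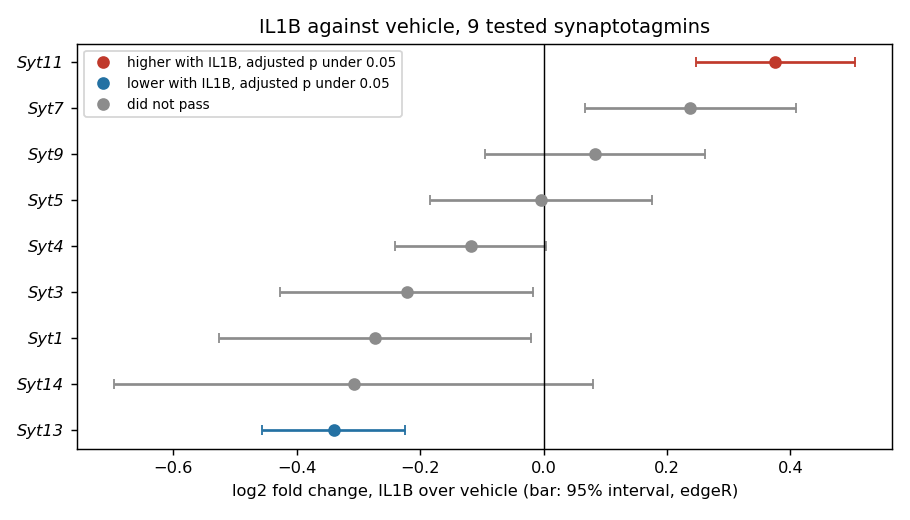
Log2 fold change of IL1B over vehicle for the 9 tested synaptotagmins, with 95% intervals from the edgeR fit on the horizontal axis. Syt11 (0.38) and Syt13 (-0.34) carry colour because their adjusted p was under 0.05; the intervals of Syt7, Syt3 and Syt1 also leave out 0, without passing the adjusted threshold.

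Among the relatives, Syt13 fell. Syt13, known in mice for its part in the formation of pancreatic endocrine cells, lies at chr2:92915098-92956058 on the plus strand. It had 343, 364 and 367 CPM in the 3 IL1B libraries, against 447, 441, 445 and 479 CPM in the 4 vehicle libraries. Every IL1B library was below every vehicle library, and the gap between groups was wider than the spread within either. The means were 358 ± 13.0 CPM with IL1B and 453 ± 17.7 CPM with vehicle (SD), a log2 fold change of -0.34 (SE 0.06, 95% interval -0.46 to -0.22; adjusted p = 2.1e-04, edgeR). The drop amounts to a 1.27-fold lower level, and it passed the test under all 16 alternative settings. As shown above, its loops hold 1 aspartate codon at the compared positions in C2A and 0 in C2B.

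Syt11 rose. This relative of Syt4, known in mouse neurons for restraining membrane uptake, lies at chr3:88744700-88775164 on the minus strand. It had 229, 223 and 241 CPM with IL1B, against 171, 177, 170 and 194 CPM with vehicle. All 3 IL1B libraries were above all 4 vehicle libraries, of which the fourth was the highest. The means were 231 ± 9.07 CPM with IL1B and 178 ± 11.2 CPM with vehicle (SD), a 1.30-fold higher level with a log2 fold change of 0.38 (SE 0.06, 95% interval 0.25 to 0.51; adjusted p = 2.3e-04, edgeR). This call too held under all 16 alternatives. Of its longest transcript, 9.46% matches transcripts of other genes at 95% identity or more over at least 100 bp, and how the counting treated such reads is unknown from the sources used here.

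**Figure D3:**
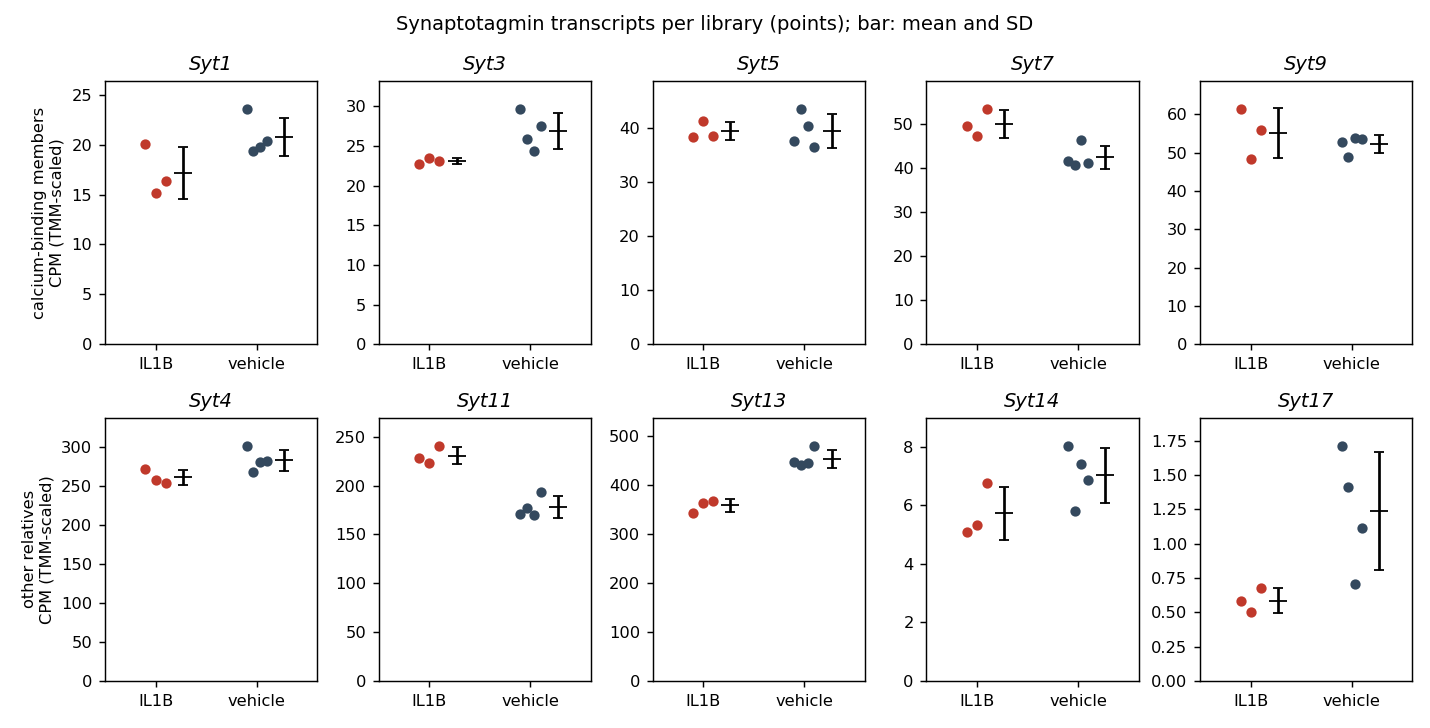
CPM of each synaptotagmin per library (points), with the mean and SD beside them, IL1B left of vehicle; the top row holds the calcium sensors and the bottom row the other relatives. Syt11 is higher in all 3 IL1B libraries (223 to 241 against 170 to 194 CPM) and Syt13 lower in all 3 (343 to 367 against 441 to 479 CPM).

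Since Syt11 and Syt13 moved in opposite directions, their ratio within a library, which does not depend on library scaling, separated the groups. For each Syt13 count there were 0.666, 0.612 and 0.655 Syt11 counts in the IL1B libraries, against 0.381, 0.403, 0.381 and 0.404 in the vehicle libraries. The ratio of Syt4 to Syt13 counts was 0.793, 0.707 and 0.691 with IL1B, against 0.674, 0.609, 0.630 and 0.588 with vehicle, and the groups again did not overlap. Between the sensors Syt7 and Syt9 the ratio did overlap, at 0.805, 0.976 and 0.955 with IL1B and 0.786, 0.830, 0.862 and 0.771 with vehicle. These ratios were taken after the fold changes were known and are given as a description.

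**Figure D4:**
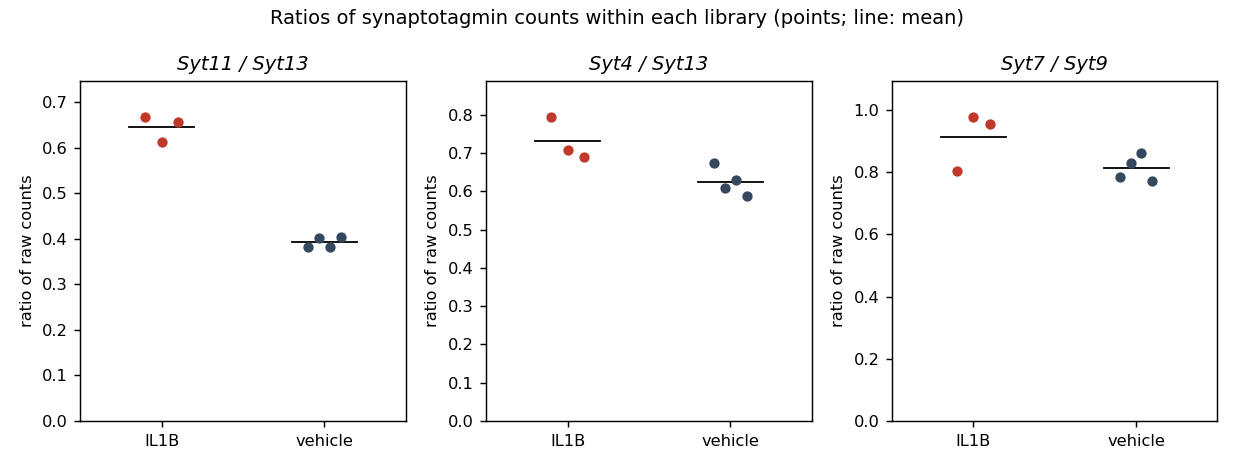
Ratio of raw counts within each library for 3 pairs of synaptotagmins (points; line at the group mean), IL1B left of vehicle, on linear axes from 0. The Syt11 to Syt13 ratio is 0.612 to 0.666 with IL1B and 0.381 to 0.404 with vehicle, while the Syt7 to Syt9 ratios of the groups overlap.

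Syt4, which in mouse beta cells takes part in the maturation of glucose-stimulated secretion, ranks second in length-scaled level with the longest transcripts, and the third with median lengths, and lies at chr18:31437808-31447406 on the minus strand. It had 272, 257 and 254 CPM with IL1B, against 301, 268, 281 and 282 CPM with vehicle. The highest IL1B library lay above the lowest vehicle library, so the groups overlapped. The means of 261 ± 9.80 CPM with IL1B and 283 ± 13.6 CPM with vehicle gave a log2 fold change of -0.12 (SE 0.06, 95% interval -0.24 to 0.0048; adjusted p = 0.242, edgeR). An antisense gene, Gm26658, overlaps 14.5% of its exonic bases, and 14.7% of its transcript matches transcripts of other genes. Whether the counting used strand is unknown from the sources used here, and Gm26658 has no row of its own.

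The remaining relatives were low. Syt14 (chr1:192891233-193035775, minus strand), which lacks the calcium-binding residues, ranged from 5.10 to 6.75 CPM with IL1B and from 5.79 to 8.03 CPM with vehicle, with overlapping groups (log2 fold change -0.31, 95% interval -0.70 to 0.08; adjusted p = 0.354, edgeR). Syt17 (chr7:118380717-118448222, minus strand), linked to membrane traffic and neurite growth in rodent neurons, had 4, 3 and 4 counts with IL1B, against 13, 9, 4 and 6 with vehicle. In CPM the groups did not overlap, at 0.499 to 0.675 with IL1B and 0.705 to 1.71 with vehicle. The IL1B counts are at or just above the floor of 3 per library, and Syt17 was not tested with the other members.

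Among the calcium sensors, no gene passed the test, and Syt7 came closest. Syt7 is a high-affinity sensor whose loss in mice lowers insulin secretion, and it lies at chr19:10389090-10453180 on the plus strand. It had 49.4, 47.2 and 53.3 CPM with IL1B, against 41.5, 40.6, 46.4 and 41.2 CPM with vehicle. The groups did not overlap, although the lowest IL1B library and the highest vehicle library were close. The means were 50.0 ± 3.09 CPM with IL1B and 42.4 ± 2.67 CPM with vehicle, and the log2 fold change was 0.24 (SE 0.08, 95% interval 0.07 to 0.41; adjusted p = 0.0719, edgeR). When the second library of each group was left out, a setting chosen after seeing the data, it passed with a log2 fold change of 0.26 and an adjusted p of 0.0390. An opposite-strand noncoding gene, Gm26859, overlaps 5.13% of its exonic bases and has no row of its own.

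Syt3 (chr7:44384102-44400187, plus strand), a sensor known in rodent neurons for its part in glutamate receptor uptake, had 22.7, 23.4 and 23.1 CPM with IL1B, against 29.6, 25.8, 24.3 and 27.5 CPM with vehicle. The IL1B libraries lay close together and below all vehicle libraries. The means of 23.1 ± 0.355 CPM with IL1B and 26.8 ± 2.27 CPM with vehicle did not differ past the threshold (log2 fold change -0.22, SE 0.10; adjusted p = 0.179, edgeR). Syt1 (chr10:108497650-109010982, minus strand), the sensor of fast transmitter release at synapses, ranged from 15.1 to 20.1 CPM with IL1B and from 19.4 to 23.6 CPM with vehicle. Its groups overlapped through the first IL1B library (log2 fold change -0.27, SE 0.12; adjusted p = 0.180, edgeR).

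Syt9 and Syt5, the most abundant sensors by length-scaled level with the longest transcripts, are both linked to dense-core granule release. With median lengths, Syt7 (33.7 with IL1B, 29.3 with vehicle) was above Syt9 (23.5 and 22.8). Syt9 lies at chr7:107370728-107548656 on the plus strand and Syt5 at chr7:4539765-4547541 on the minus strand. Syt9 ranged from 48.4 to 61.3 CPM with IL1B and from 48.9 to 53.8 CPM with vehicle, so the vehicle range fell inside the IL1B range (log2 fold change 0.08, 95% interval -0.09 to 0.26; adjusted p = 0.630, edgeR). Syt5 ranged from 38.3 to 41.2 CPM with IL1B and from 36.4 to 43.4 CPM with vehicle (log2 fold change -0.0040, 95% interval -0.18 to 0.18; adjusted p = 0.987, edgeR). The intervals correspond to 0.936 to 1.20 times the vehicle level for Syt9 and to 0.880 to 1.13 times for Syt5.

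The nearest tested gene on each side of each called member was read beside it, and genes that were not tested were passed over. Rit1, which encodes a Ras-like GTPase, lies 13651 bp from Syt11 and was also higher, at 28.1 CPM with IL1B and 20.7 CPM with vehicle (log2 fold change 0.44, SE 0.10; adjusted p = 0.0054, edgeR). On the other side, 5830417I10Rik starts 52 bp from Syt11, and its value is uncertain because its whole longest transcript matches other annotated transcripts (log2 fold change 0.02; adjusted p = 0.948). The nearest tested genes around Syt13 are farther away, and untested genes may lie closer. Chst1, 299848 bp off, had 3.71 CPM with IL1B and 4.57 CPM with vehicle. Trp53i11, 231490 bp off, had 16.0 and 17.4 CPM, and neither passed the test (adjusted p = 0.589 and 0.674, edgeR). The genes whose centred log2 CPM followed that of Syt13 most closely over the 7 libraries, among 10901 genes compared, were Slitrk1 (root mean square difference 0.033), Furin (0.039) and Trim35 (0.039). Slitrk1, a neuronal adhesion protein, had 41.9 ± 1.83 CPM with IL1B and 53.2 ± 2.01 CPM with vehicle, and Furin, a proprotein-cleaving enzyme, had 41.3 ± 1.81 and 51.9 ± 2.98 CPM. Trim35, a tripartite-motif protein, had 344 ± 2.78 CPM with IL1B and 427 ± 15.5 CPM with vehicle. Because these genes were chosen for their likeness to Syt13 in the same libraries, their lower means with IL1B follow from the choice.

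Gene lists around the synaptotagmins were read against the same edgeR background of 7.76% of tested genes higher and 3.25% lower. At these shares, lists this short can hold few calls or none. DESeq2 called 804 higher and 255 lower of 14282 genes, and limma-voom 960 and 386 of 12480. The share of all tested genes at an unadjusted p under 0.05 is not given here, so nothing is read from list counts at that threshold. Of the 7 other synaptotagmins in the table, Syt2, Syt10 and Syt12 were tested and 0 passed in edgeR, with 0 at an unadjusted p under 0.05 and 0 in DESeq2 and limma-voom. The median log2 fold change of these 3 was 0.08. Syt2, the closest relative of Syt1, had 14.2 ± 0.754 CPM with IL1B and 13.5 ± 0.843 CPM with vehicle. Of 8 tested relatives with C2 domains in tandem, 0 passed by the same 3 tools, again with 0 at an unadjusted p under 0.05. They include Sytl4 (granuphilin, a docking protein of insulin granules) and Esyt1 and Esyt2 (tethers between endoplasmic reticulum and plasma membrane). Their median log2 fold change was -0.04, and Sytl4 had 284 ± 0.882 CPM with IL1B and 305 ± 14.4 CPM with vehicle. The 11 tested subunits of voltage-gated calcium channels likewise gave 0 calls by each tool and 0 at an unadjusted p under 0.05, with a median log2 fold change of -0.03.

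Of 21 SNARE proteins and close regulators, all tested, 1 rose and 0 fell in edgeR, DESeq2 and limma-voom, and 2 more had lower values at an unadjusted p under 0.05. The counts of 1 and 0 past the adjusted threshold lie near the 7.76% higher and 3.25% lower of all tested genes. For the 2 at an unadjusted p, no matching share of all tested genes is given here. The list's members had a median log2 fold change of -0.03. The gene that rose was Stx3, a syntaxin of granule and plasma membranes, with 55.1 ± 2.64 CPM with IL1B and 37.4 ± 1.94 CPM with vehicle (1.48-fold, adjusted p = 4.0e-05, edgeR).

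Synaptotagmins are also neuronal and endocrine genes, so markers of other cell types were read alongside. Calls among them are to be read beside the 7.76% of all tested genes that were higher and the 3.25% that were lower. Of 5 tested neuronal markers, 1 rose (Tubb3, 152 ± 1.68 CPM with IL1B and 113 ± 8.15 CPM with vehicle). The 6 listed summed to 402 to 442 CPM with IL1B and 379 to 403 CPM with vehicle, ranges that overlap. Among 3 tested genes that mark islet cells other than beta cells, 1 fell (Irx2, 5.16 against 9.19 CPM), and the 7 listed summed to 535 to 590 CPM with IL1B and 578 to 638 CPM with vehicle. Leukocyte markers summed to 4.39 to 5.68 CPM with IL1B and 3.34 to 4.54 CPM with vehicle, with Ptprc at 9 and 8 counts in all. Stromal and endothelial markers summed to 5.25 to 7.15 and 4.64 to 7.58 CPM, and exocrine and duct markers to 20.2 to 20.9 and 18.4 to 23.3 CPM. The stromal and endothelial sum covers genes that went opposite ways: Pecam1 had 41 counts in all with IL1B and 17 with vehicle, and Col3a1 had 0 and 8. Both were below the filter on low counts and were not tested. The part of these differences, and of those in Pdx1 and Mafa, in the Syt11 and Syt13 results was not tested.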

How the data were processed

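Polyadenylated RNA of Beta-TC6 cells was prepared for sequencing with NEBNext Ultra II reagents, per the labels' protocols. The authors deposited raw counts per gene symbol for 7 libraries. The submitters' processing notes name the build mm10 and the tools Bowtie2, STAR, HOMER, RSEM, Cell Ranger, Signac, Seurat, DESeq2 and R 4.1.0 for the whole study, without roles; the counting tool, the annotation and the use of strand are unknown from the sources used here. The table numbers its IL1B columns 1, 2 and 3 where sample titles have 1, 3 and 4, so those columns were tied to the group only. No pair of replicates matched within sampling noise (chi-square per degree of freedom 1.52 to 4.88 over 9 pairs).

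The test was run with edgeR 4.0.16 under R 4.3.3 (TMM scaling, filterByExpr, quasi-likelihood F test over all 7 libraries, no covariate, Benjamini-Hochberg adjustment over all tested genes, threshold 0.05); it was first tried on simulated counts. CPM are per 1e+06 TMM-scaled counts in tested genes. Intervals of fold changes are 95%, and the floor of 3 counts covers counting error only. The members, gene lists and markers were chosen with earlier results of these data known, and 1 listed gene is not reported here. All members were named, with library values for those past the threshold, those with separate groups and the 3 of highest level; up to 4 called genes per list were named, and the 3 genes most like the member of smallest adjusted p among those of at least 5 CPM (log2 of CPM plus 0.5). Gene models and coding sequences came from GENCODE on GRCm38, all 10 members matching 1 model each; 9 were aligned with mafft 7.526, and shared sequence was found with blastn 2.17.0. Alternatives were other scalings and filters, DESeq2 1.42.0, limma-voom (limma 3.58.1), an offset for transcript length and GC content, and leaving out libraries.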

Additional observations from a re-analysis of the deposited data

Results flagged for a closer look

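In 39 groups of 4 vehicle libraries, 3 held a library that stood apart by Dixon's test at the 95% level; chance alone flags about 1 group in 20. Syt7 was 46.4 CPM in the third vehicle library, against 40.6 to 41.5 CPM in the other vehicle libraries. Sytl4 was 283 CPM in the second vehicle library, against 312 to 313 CPM in the others. The length-scaled level of Syt9 was 31.4 in the second vehicle library, against 36.5 to 37.0 in the others.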

How the results depend on the processing

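The calls of Syt11 (log2 fold change 0.34 to 0.42, adjusted p up to 0.0047) and Syt13 (-0.37 to -0.31, adjusted p up to 0.0033) held under all 16 alternatives. The count of members higher became 2 when the second library of each group was left out, the setting chosen after seeing the data, where Syt7 passed; over all alternatives Syt7 ranged from 0.19 to 0.28 (adjusted p 0.0390 to 0.281). The count of all genes lower was 255 in DESeq2, 676 in that added setting, and 252 to 589 over fits leaving out 1 library; a fit correcting length and GC content gave 1184 higher and 563 lower. Leaving out 1 library gave Syt5, near 0 in the report, log2 fold changes of -0.038 to 0.048, above 0 without the second vehicle library (0.048), the third vehicle library (0.0072), the first IL1B library (0.014) or the third (0.012), and it was 0.012 in the added setting. Leaving out 1 library gave Syt9 -0.0033 (without the first IL1B library) to 0.17 (without the second). None of these passed the test. The cause of these changes was not tested. Syt17 could be fitted without a filter, at 1 CPM in 3 libraries and in DESeq2 (log2 fold change -1.10 in each, adjusted p 0.187 to 0.527). Median transcript lengths put Syt13 at 103 with IL1B and 134 with vehicle, and Syt5 at 95.7 and 98.3. No paired analysis was possible because the table's IL1B columns are numbered differently from the sample titles. Depth limits Syt17 and Syt14 most: Syt17 had 11 counts in all with IL1B and 32 with vehicle, and Syt14 had 107 and 177.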
